A study of Mus musculus with 10 samples.

Results

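The mouse genes of cholesterol and fatty acid synthesis, with the genes that control them and those that carry sterols, were followed across RNA sequencing libraries of developing lymphocytes and granulocytes. The set was chosen by gene symbol and holds 33 of the 22923 symbols measured. Of its members, 16 encode enzymes of the mevalonate and sterol pathway, 5 encode the SREBP transcription factors and the proteins that hold or escort them, 3 encode sterol carriers or exporters, and 9 encode enzymes that make, elongate or desaturate fatty acids. All 33 were found. Tm7sf2 was present only on a row shared with the overlapping 1110014N23Rik, and that row was used.

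The study measured 5 cell populations, each from CKO-labelled and from control C57bl/6 mice of 4 weeks. The CKO label stands for the genotype Dyrk1a -/-, Mx1-Cre+, and the control label for Dyrk1a flox/flox, Mx1-Cre-. Mx1-Cre is driven by an interferon-responsive promoter that is not restricted to 1 cell type, and the labels name no inducing agent. Quiescent and cycling CD4+CD8+ thymocytes came from the thymus, and mature granulocytes, small pre-B cells and large pre-B cells from the bone marrow. Small pre-B cells are the resting stage that follows the dividing large pre-B cells. Each genotype was a pool of 2 mice, and each population of a genotype was 1 library, so the 10 libraries came from 1 pool per genotype. All controls carried the floxed allele without Cre, so an effect of Mx1-Cre itself cannot be told apart from that of the deletion.

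Cholesterol is built from acetyl-CoA through mevalonate, squalene and lanosterol. The genes of this route are switched on mainly by SREBP2 (Srebf2), and those of fatty acid synthesis mainly by SREBP1 (Srebf1). The factors sit in the endoplasmic reticulum with their escort SCAP, and INSIG proteins hold them there when sterols are plentiful. Insig1 is itself a target of the SREBPs. Excess sterol instead activates the liver X receptors, which switch on the exporters Abca1 and Abcg1 and also Srebf1. Dividing lymphocytes need new membrane, and sterol synthesis is known to rise when T cells are stimulated.

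Promoter windows, 250 bases before to 50 after the start, are shown because several members moved together across the libraries. RefSeq windows on GRCm38.p6 were given for 25 of the 33 members. A fixed spelling of the sterol regulatory element, TCACNCCAC on either strand, was found in 1 of the 25 members (4.0%), Hmgcs1, against 1.44% of all genes with a window. The NF-Y motif CCAAT was found in 19 of 25 (76.0%, against 41.1% of all genes) and the SP1 motif GGGCGG in 20 of 25 (80.0%, against 38.2%). The E-box CACGTG was found in 6 of 25 (24.0%, against 8.09%). The 5 windows below belong to members that the results turn on: Hmgcs1 and Idi1 of the mevalonate route, the SREBP target Insig1, and Fasn and Fads2 of the fatty acid branch. Capitals mark TCACNCCAC or CCAAT on either strand, so that a CCAAT on the other strand reads ATTGG. In Fasn a CCAAT and an ATTGG overlap.
Hmgcs1 (chr13:119690101-119690400, plus strand): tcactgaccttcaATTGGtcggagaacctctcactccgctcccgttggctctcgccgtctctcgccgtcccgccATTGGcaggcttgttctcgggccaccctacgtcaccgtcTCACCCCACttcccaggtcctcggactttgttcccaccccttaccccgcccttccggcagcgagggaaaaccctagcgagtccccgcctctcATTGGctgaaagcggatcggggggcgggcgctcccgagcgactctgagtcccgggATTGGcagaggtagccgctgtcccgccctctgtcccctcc
Idi1 (chr13:8885356-8885655, plus strand): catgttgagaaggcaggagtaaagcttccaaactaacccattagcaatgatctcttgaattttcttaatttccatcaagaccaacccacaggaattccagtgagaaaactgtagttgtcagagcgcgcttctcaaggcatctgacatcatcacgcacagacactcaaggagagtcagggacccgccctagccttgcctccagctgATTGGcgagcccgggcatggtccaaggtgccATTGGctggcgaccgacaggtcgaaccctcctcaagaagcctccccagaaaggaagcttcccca
Insig1 (chr5:28071162-28071461, plus strand): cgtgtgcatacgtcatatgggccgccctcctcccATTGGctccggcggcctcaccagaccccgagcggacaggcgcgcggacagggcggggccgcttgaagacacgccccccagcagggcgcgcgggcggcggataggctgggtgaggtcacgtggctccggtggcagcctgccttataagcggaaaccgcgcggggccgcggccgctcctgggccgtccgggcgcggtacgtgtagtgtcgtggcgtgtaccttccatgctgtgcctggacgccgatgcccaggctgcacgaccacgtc
Fasn (chr11:120824498-120824797, minus strand): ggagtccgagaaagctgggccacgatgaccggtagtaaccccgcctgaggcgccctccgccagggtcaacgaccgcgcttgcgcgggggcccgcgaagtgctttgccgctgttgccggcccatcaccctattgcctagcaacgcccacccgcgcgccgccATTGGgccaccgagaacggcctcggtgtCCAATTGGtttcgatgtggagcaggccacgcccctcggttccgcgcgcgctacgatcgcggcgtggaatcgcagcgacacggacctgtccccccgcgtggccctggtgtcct
Fads2 (chr19:10101454-10101753, minus strand): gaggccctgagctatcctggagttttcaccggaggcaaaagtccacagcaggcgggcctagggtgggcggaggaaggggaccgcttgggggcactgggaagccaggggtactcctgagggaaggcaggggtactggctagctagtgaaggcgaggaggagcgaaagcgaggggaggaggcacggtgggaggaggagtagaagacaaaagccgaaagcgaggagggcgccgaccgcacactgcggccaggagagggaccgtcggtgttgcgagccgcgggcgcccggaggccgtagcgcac
Hmgcs1 held the sterol element and 4 CCAAT motifs, Fasn 3, Idi1 2, Insig1 1 and Fads2 0. A match of letters is a description of the window, and no binding was measured.

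Values are taken to be FPKM, that is, fragment numbers corrected for transcript length and library size. No label names the unit, which rests on the tools and on the values. The deposited values summed to 1074258 and 830006 FPKM in CKO-labelled and control granulocytes, against 360394 to 431868 FPKM for lymphoid cells. B lineage markers summed to 1450 to 3440 FPKM in the pre-B libraries and to at most 19.6 FPKM elsewhere. CD4+CD8+ thymocyte markers summed to 1630 to 2800 FPKM in the thymocyte libraries and to at most 23.0 FPKM elsewhere. Dyrk1a was not lower in any CKO-labelled library (34.4 to 44.7 FPKM, against 31.2 to 37.4 FPKM in controls). The labels do not give the deleted part of the gene, so every direction between genotypes below rests on the labels. Granulocytes held Mki67, a marker of dividing cells, at 95.1 FPKM in the CKO-labelled and 76.0 FPKM in the control library. S100a9, a defining granulocyte gene, was listed at 0 in both of them, and S100a8 and Ngp in the control one, so a listed 0 can be a failed estimate. No lipid gene of the set was listed at 0.

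**Figure D1:**
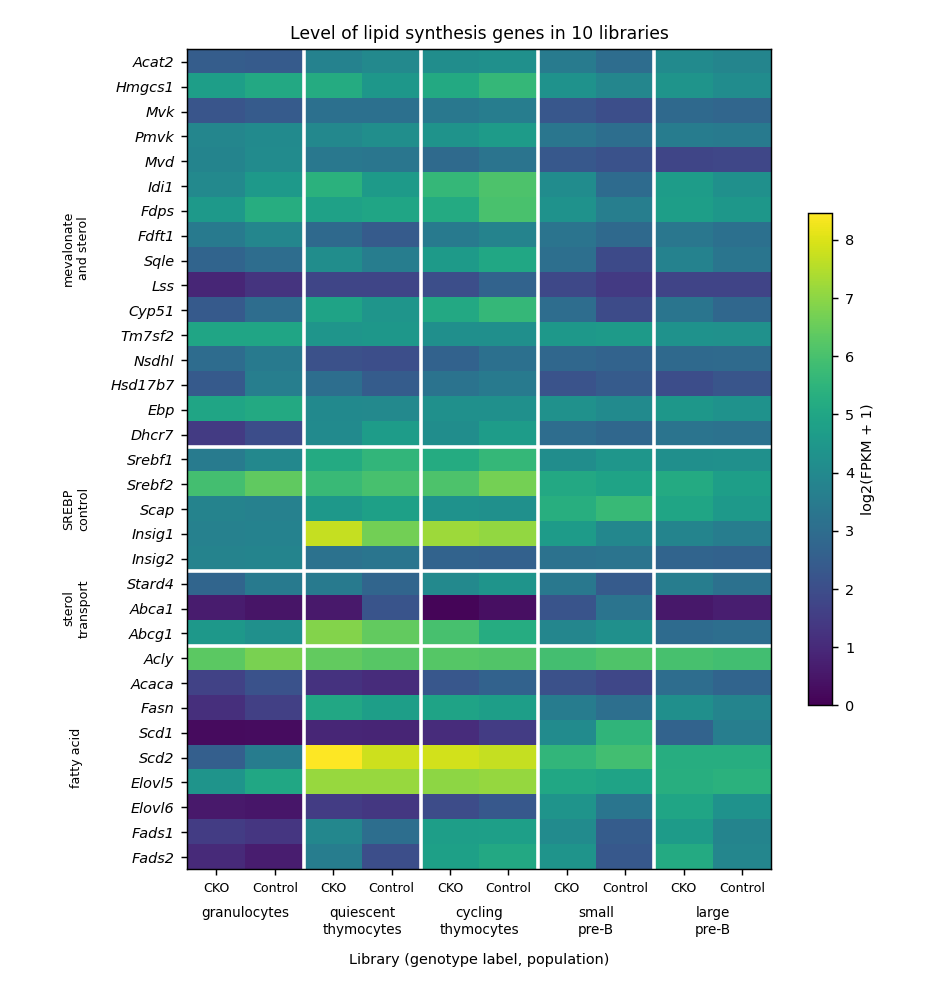
Levels of the 33 genes as log2(FPKM + 1) by colour, with 1 column per library, CKO-labelled left of control in each population, and genes grouped by role. Insig1, Scd2, Elovl5 and Abcg1 are brightest in the thymocyte columns, while Scd1 and Elovl6 are brighter in the pre-B columns and most fatty acid rows are dark in granulocytes.

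The summed FPKM of the gene set was higher in CD4+CD8+ thymocytes than in pre-B cells. It was 1050 to 1350 in the 4 thymocyte libraries, 478 to 574 in the 4 pre-B libraries and 438 and 574 in CKO-labelled and control granulocytes. The sums lean on a few abundant members, since Scd2 alone had 210.0 to 350 FPKM in thymocytes and 37.7 to 57.9 FPKM in pre-B cells. The median over the members was 14.9 to 24.1 FPKM in thymocytes and 7.41 to 13.8 FPKM in pre-B cells. The most abundant member was Scd2, a desaturase of saturated fatty acids, in every thymocyte library. In every pre-B and granulocyte library it was Acly, which makes cytosolic acetyl-CoA from citrate. Acly itself stood at 79.3 and 108 FPKM in CKO-labelled and control granulocytes and at 59.2 to 84.5 FPKM across the lymphoid populations.

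Thymocytes were set against pre-B cells in a limma fit over all 10 libraries with terms for population and genotype. A gene was called at a Benjamini-Hochberg adjusted p under 0.05 over all 11715 genes fitted. Differences are on the log2(FPKM + 1) scale, which understates the change of low genes. Thymocytes had 18 members higher (54.5%) and 6 lower (18.2%), against 33.2% and 36.5% of all genes. The median difference was 0.81 over the members and −0.05 over all genes. Organ and lineage cannot be told apart here, and in bulk RNA fewer cells of a type and less RNA per cell cannot be told apart.

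Insig1, which holds SREBPs back in the endoplasmic reticulum, had 206 and 100 FPKM in CKO-labelled and control quiescent thymocytes and 147 and 135 FPKM in cycling ones. In small pre-B cells it had 23.9 and 14.0 FPKM in CKO-labelled and control libraries, and in large pre-B cells 13.0 and 10.9 FPKM. All 4 thymocyte libraries were above all 4 pre-B libraries, and the difference was 3.18 (SE 0.18, limma adjusted p = 1.14e-05). Its relative Insig2 had 5.20 to 8.86 FPKM in thymocytes and pre-B cells and was not called. The ratio of Insig1 to Insig2 was therefore 11.3 to 27.2 in thymocytes, 1.65 to 2.92 in pre-B cells and 0.965 and 0.967 in CKO-labelled and control granulocytes. Srebf1 rose by 1.13 (SE 0.09, limma adjusted p = 4.63e-05) and Srebf2 by 1.16 (SE 0.18, limma adjusted p = 0.00108). Scap, the escort, fell by 0.68 (limma adjusted p = 0.00349), with 17.8 to 26.9 FPKM in thymocytes and 22.9 to 51.3 FPKM in pre-B cells.

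Of the 16 sterol enzymes, 11 rose (68.8%) and 1 fell (6.25%) in thymocytes, against 33.2% and 36.5% of all genes. Their median difference was 0.89. Cyp51, which removes a methyl group from lanosterol, had 28.9 and 20.3 FPKM in CKO-labelled and control quiescent thymocytes and 33.01 and 48.2 FPKM in cycling ones. It had 7.14 and 2.80 FPKM in CKO-labelled and control small pre-B cells, and 8.81 and 6.04 FPKM in large pre-B cells. The groups did not overlap, and the difference was 2.24 (SE 0.29, limma adjusted p = 0.000468). Idi1, the isomerase that makes the second isoprene unit, rose by 1.45, the squalene epoxidase gene Sqle by 1.34 and Dhcr7, which reduces the last precursor to cholesterol, by 1.32. Mvd, the decarboxylase of the mevalonate route, rose by 1.21, and Fdps, the farnesyl diphosphate synthase gene, by 0.97. Smaller rises were those of the synthase gene Hmgcs1 (0.94), the kinase genes Pmvk (0.94) and Mvk (0.81), the sterol reductase gene Hsd17b7 (0.85) and the thiolase gene Acat2 (0.43). Reads of Acat2 may be shared with its close paralog Acat3. Nsdhl, a sterol dehydrogenase gene, fell by 0.36 (limma adjusted p = 0.0499), but its difference was 0.056 without the quiescent thymocyte pair. Its call was also lost without the large pre-B pair (−0.28). Fdft1, Lss, Tm7sf2 and Ebp, the other 4, were not called.

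Efflux and carrier genes went different ways. Abcg1, an exporter of cellular sterol, had 117 and 84.3 FPKM in CKO-labelled and control quiescent thymocytes and 62.2 and 36.9 FPKM in cycling ones. Its 4 pre-B values lay between 6.68 and 17.8 FPKM, below all 4 thymocyte values, and the difference was 2.60 (SE 0.18, limma adjusted p = 2.43e-05). Abca1, an exporter to lipid-poor apolipoprotein, fell by 0.86 (limma adjusted p = 0.0323), and was at 0.0833 to 3.55 FPKM in thymocytes and 0.451 to 8.51 FPKM in pre-B cells. Those ranges overlap, and without the cycling thymocyte pair the difference was −0.29 and was not called. Abca1 reached 1 FPKM only in small pre-B cells (3.57 and 8.51 FPKM in CKO-labelled and control libraries) and in control quiescent thymocytes. It would not have passed the filter without small pre-B cells, where it is high. Its call, counted among the members that fell, therefore adds no support to these values. The sterol carrier gene Stard4 was not called. Calls also lost without 1 pair were those of Acat2 (0.26 without cycling thymocytes, 0.09 without small pre-B cells) and Fdps (0.63 and 0.65 without the same pairs). So were those of Hsd17b7 (0.56 without cycling thymocytes, 0.76 without large pre-B cells) and Scap (−0.31 without small pre-B cells).

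Of the 9 fatty acid genes 3 rose and 3 fell in thymocytes (33.3% each), near the 33.2% and 36.5% of all genes. The paralogs Scd1 and Scd2 went opposite ways, as did the elongase genes Elovl5 and Elovl6. Scd2 had 350 and 221 FPKM in CKO-labelled and control quiescent thymocytes, and 236 and 210.0 FPKM in cycling ones. In pre-B cells it lay between 37.7 and 57.9 FPKM, and the difference was 2.47 (SE 0.24, limma adjusted p = 0.00012). Scd1, the neighbouring desaturase gene, was at 0.850 to 1.86 FPKM in thymocytes and at 5.50 to 45.4 FPKM in pre-B cells, and fell by 2.89 (SE 0.25, limma adjusted p = 7.38e-05). Scd1 thus made up 0.248% to 0.877% of the summed FPKM of the pair in thymocytes, and 12.7% to 43.9% in pre-B cells. The genes lie 87.6 kb apart on chromosome 19 and face each other (Scd2 at 44293674 to 44306864, plus strand, and Scd1 at 44394455 to 44407879, minus strand, GRCm38). Both are similar in sequence, and the treatment of reads common to them is not stated by the labels. Elongase genes showed the same kind of division. Elovl5, which extends polyunsaturated fatty acids, had 129 to 143 FPKM in thymocytes and 29.0 to 40.9 FPKM in pre-B cells, and rose by 1.95 (SE 0.13, limma adjusted p = 2.27e-05). Elovl6, which extends palmitate, had 1.59 to 4.03 FPKM in thymocytes and 8.82 to 30.7 FPKM in pre-B cells, and fell by 2.45 (SE 0.23, limma adjusted p = 9.95e-05). Fasn, the fatty acid synthase gene, rose by 1.20 and the acetyl-CoA carboxylase gene Acaca fell by 0.60. The difference of Acaca was 0.062 without the quiescent thymocyte pair, and its call was also lost without the large pre-B pair (−0.13). Acly, Fads1 and Fads2 were not called.

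**Figure D2:**
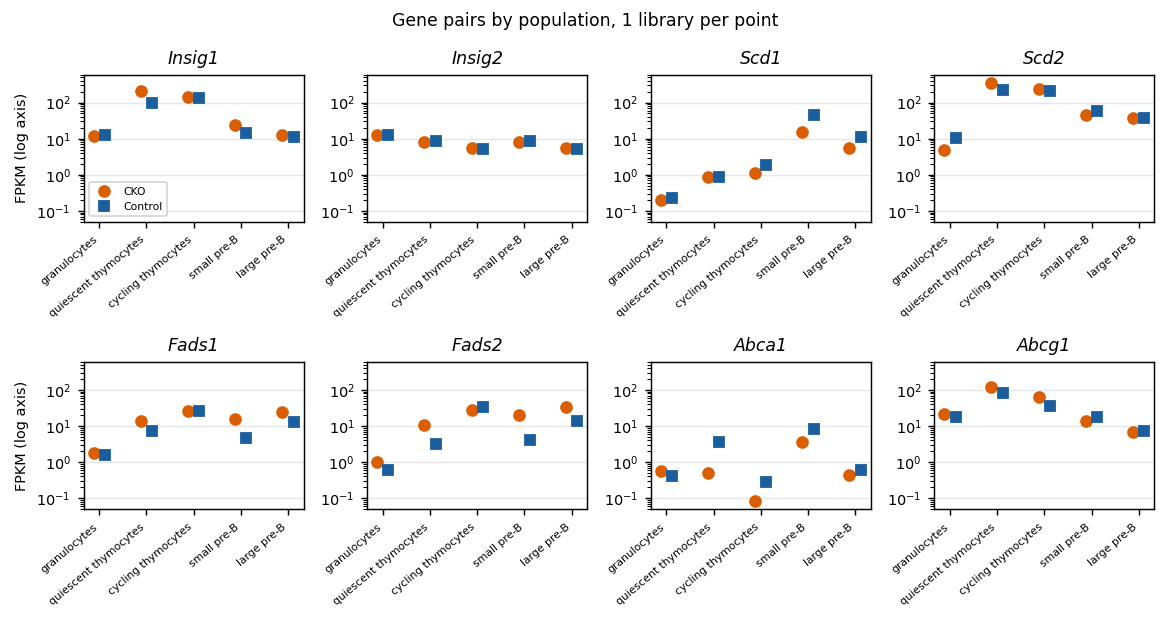
FPKM on a log axis of 4 gene pairs (Insig1 and Insig2, Scd1 and Scd2, Fads1 and Fads2, Abca1 and Abcg1) in 5 populations, with circles for CKO-labelled and squares for control libraries, 1 library per point. Insig1 stands at 100 to 206 FPKM in thymocytes and Insig2 stays under 13 FPKM everywhere, while Scd1 and Scd2 run in opposite directions between thymocytes and pre-B cells.

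Granulocytes had 10 members higher (30.3%) and 14 lower (42.4%) than pre-B cells of the same organ in that fit, against 41% and 36.7% of all genes. The shares of the whole set lay near those of all genes, but its branches differed. Of the 9 fatty acid genes 8 fell and 1, Acly, rose by 0.55, with a median of −2.33. Fasn had 1.22 and 2.04 FPKM in CKO-labelled and control granulocytes and 7.41 to 17.6 FPKM in pre-B cells, and fell by 2.29 (SE 0.19, limma adjusted p = 3.17e-05). Elovl6 and Scd1 each fell by 3.70 (limma adjusted p = 1.8e-05 for Elovl6 and 2.97e-05 for Scd1), and were under 0.5 FPKM in both granulocyte libraries. Fads2, a desaturase of polyunsaturated fatty acids, fell by 3.09, Scd2 by 2.45, Fads1, its partner enzyme gene, by 2.33, Acaca by 0.51 and Elovl5 by 0.46.

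Sterol enzymes divided 6 higher (37.5%) to 3 lower (18.8%) in granulocytes, against 41% and 36.7% of all genes, with a median of 0.44. The share that rose was thus near that of all genes. Mvd had 13.2 and 16.1 FPKM in CKO-labelled and control granulocytes and 2.43 to 4.06 FPKM in pre-B cells, and rose by 1.96 (SE 0.14, limma adjusted p = 1.39e-05). Hsd17b7 rose by 0.81, the sterol isomerase gene Ebp by 0.78, Hmgcs1 by 0.74, Pmvk by 0.63 and the sterol reductase gene Tm7sf2 by 0.54. Dhcr7 fell by 1.34, Acat2 by 1.15 and the lanosterol synthase gene Lss by 0.59. Among the SREBP control genes Srebf2 rose by 1.18 and Insig2 by 0.82, while Scap fell by 1.40 and Srebf1 by 0.51. The ratio of Srebf2 to Srebf1 was 5.62 and 5.73 in CKO-labelled and control granulocytes, and 1.37 to 2.13 in the lymphoid libraries. Abcg1 rose by 0.84 and Abca1 fell by 1.11. Abca1 had 0.556 and 0.400 FPKM in CKO-labelled and control granulocytes, and 3.57 and 8.51 FPKM in CKO-labelled and control small pre-B cells. It would not have passed the filter without small pre-B cells, where it is high. The call of Abca1, counted among the members that fell, therefore adds no support to these values. Mvk, Idi1, Fdps, Fdft1, Sqle, Cyp51, Nsdhl, Insig1 and Stard4 were not called. Rescaling the libraries by median ratios shifted the median of all genes by −0.10 in this comparison, and Hmgcs1 and Hsd17b7 were then not called. The calls of Lss, Hmgcs1, Hsd17b7, Abca1, Abcg1, Acly, Acaca and Elovl5 were each lost on leaving out at least 1 of the 6 granulocyte and pre-B libraries. That of Lss was lost without any 1 of them except control small pre-B cells. That of Hsd17b7 was lost without any 1 except CKO-labelled granulocytes. Those of Hmgcs1 and Elovl5 were lost in most of these omissions. Without the control granulocytes Hmgcs1 had a difference of 0.44, Hsd17b7 of 0.22, Abca1 of −0.65 and Acly of 0.31. Without the CKO-labelled granulocytes Acaca had a difference of −0.22 and Elovl5 of −0.12. Monocyte and macrophage markers, 10 genes, summed to 262 and 406 FPKM in CKO-labelled and control granulocytes, against 11.6 to 92.9 FPKM in pre-B cells. Csf1r, a defining marker of these cells, had 57.8 and 77.2 FPKM in CKO-labelled and control granulocytes and 0.319 to 7.15 FPKM in pre-B cells. Their part in these differences was not tested.

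Quiescent thymocytes held less transcript of 5 of the 16 sterol enzymes and of the desaturase genes Fads1 and Fads2 than cycling thymocytes. The state was compared within each pool, with the pools, 1 per genotype, as replicates, in a limma fit to the 8 lymphoid libraries (2 residual degrees of freedom, 11126 genes). Of the 33 members 11 fell (33.3%) and 2 rose (6.06%), against 19.7% and 25.2% of all genes. The median difference was −0.40 over the members, −0.57 over the sterol enzymes and 0.06 over all genes. The 5 sterol enzymes that fell were 31.2% of their group, and 0 rose. The desaturase genes Scd1 and Scd2 were not called.

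The largest fall was that of Fads2. It had 10.9 FPKM in quiescent and 27.2 FPKM in cycling CKO-labelled thymocytes, and 3.11 FPKM in quiescent and 33.3 FPKM in cycling control thymocytes. Both quiescent values were below both cycling ones, and the difference was −2.15 (SE 0.44, limma adjusted p = 0.0145). Acaca had 1.38 FPKM in quiescent and 3.95 FPKM in cycling CKO-labelled cells, and 1.10 FPKM in quiescent and 5.27 FPKM in cycling control cells. Its difference was −1.32 (SE 0.16, limma adjusted p = 0.00688). Fads1 fell by 1.27 and Elovl6 by 0.72, and no fatty acid gene rose. Among sterol enzymes Sqle fell by 0.97, the squalene synthase gene Fdft1 by 0.96, Nsdhl by 0.83, Fdps by 0.68 and Pmvk by 0.45. Stard4 fell by 1.06 and Srebf2 by 0.53. Abcg1 had 117 FPKM in quiescent and 62.2 FPKM in cycling CKO-labelled cells, and 84.3 FPKM in quiescent and 36.9 FPKM in cycling control cells, and rose by 1.04 (SE 0.12, limma adjusted p = 0.00667). Insig2, the second INSIG gene, rose by 0.59. The other 20 members were not called, among them Abca1 with a difference of 1.15 (limma adjusted p = 0.054). Leaving out a pair of libraries leaves 1 residual degree of freedom. Without the control thymocyte pair 0 members were called, with 4 calls over all genes against 4997 with every pair. Without the CKO-labelled thymocyte pair 17 members were called (3214 of all genes), without the CKO-labelled pre-B pair 7 (3795) and without the control pre-B pair 6 (3772). With no filter on low values 4 members were called (3477 of all genes).

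Small pre-B cells also held less transcript of several sterol and fatty acid enzymes than large pre-B cells. In this fit 9 members fell (27.3%) and 5 rose (15.2%), against 21.8% and 25.6% of all genes, and the median was −0.17 over the members and 0.04 over all genes. Of the sterol enzymes Sqle fell by 1.02, Mvk by 0.68, Acat2 by 0.67 and Fdps by 0.64. Of the fatty acid enzymes Fads1 fell by 0.95, Acaca by 0.94, Elovl6 by 0.81, Fasn by 0.70 and Elovl5 by 0.37. Fads2 had a difference of −1.15 and was not called (limma adjusted p = 0.078). The share of members that fell was near that of all genes in this comparison. Markers of other cells differed between the same libraries. The 8 granulocyte markers went both ways. Their median was 16.3 and 23.8 FPKM in CKO-labelled and control small pre-B cells and 61.3 and 86.9 FPKM in large ones. Mpo had 4.57 and 6.48 FPKM in small and 159 and 365 FPKM in large pre-B cells. Elane had 3.72 and 6.86 FPKM in small and 115 and 251 FPKM in large, and Prtn3 was also higher in large. S100a8, S100a9, Ltf, Camp and Ngp were instead higher in small pre-B cells. S100a8 had 221 and 272 FPKM in small and 84.1 and 104 FPKM in large. The 6 erythroid markers summed to 1.62 and 1.05 FPKM in CKO-labelled and control small pre-B cells and to 20.7 and 36.3 FPKM in large ones. Their part in the lipid differences was not tested.

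Scd1 had 15.7 FPKM in small and 5.50 FPKM in large CKO-labelled pre-B cells, and 45.4 FPKM in small and 11.3 FPKM in large control cells. It rose by 1.64 (SE 0.19, limma adjusted p = 0.0045). Both exporters rose. Abca1 had 3.57 FPKM in small and 0.451 FPKM in large CKO-labelled cells, and 8.51 FPKM in small and 0.617 FPKM in large control cells. Its difference was 2.11 (SE 0.37, limma adjusted p = 0.00988). Among the lymphoid libraries Abca1 reached 1 FPKM only in the small pre-B ones and in control quiescent thymocytes (3.55 FPKM). It thus passed the filter only through quiescent libraries, where it is high, so its call adds no support to these values. Abcg1 rose by 1.06 (SE 0.12, limma adjusted p = 0.00433). Scap rose by 0.74 and Insig2 by 0.53. Abcg1 and Insig2 rose in both lineages, and Sqle, Fdps, Acaca, Elovl6 and Fads1 fell in both. Without the control pre-B pair 0 members were called, with 3 calls over all genes against 5277 with every pair. Without the CKO-labelled pre-B pair 2 members were called (1426 of all genes), and with no filter on low values 8 (3989). Without the CKO-labelled or the control thymocyte pair the members called were 18 (4972 of all genes) and 17 (4930).

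The state effect itself was compared between lineages as pre-B minus thymocyte. Scd1 had a difference of 2.04 (SE 0.27, limma adjusted p = 0.0273) and Fasn of −0.77 (SE 0.15, limma adjusted p = 0.049). These were 1 member higher (3.03%) and 1 lower (3.03%), against 3.22% and 3.62% of all genes. Scd1 differed by −0.16 and −0.63 in CKO-labelled and control thymocytes, and by 1.36 and 1.92 in CKO-labelled and control pre-B cells. Fasn differed by 0.15 and −0.02 in CKO-labelled and control thymocytes, and by −0.66 and −0.75 in CKO-labelled and control pre-B cells. The call of Fasn was lost with pseudocounts of 0.1 and 5 and after rescaling, and without the filter or without any 1 pair of libraries at most 1 member was called. Over all genes 0 were called without the filter, and 0 to 359 without 1 pair, against 761 with every pair.

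Over the 4 pairs of quiescent and cycling libraries, 15 members were lower in the quiescent library of every pair (45.5%, against 26.9% of all genes). They include 10 of the 16 sterol enzymes, with Acaca, Elovl6, Fads1, Fads2 and Stard4. Higher in the quiescent library of every pair were 7 members (21.2%, against 33.6% of all genes): Mvd, Tm7sf2, Scap, Insig2, Abca1, Abcg1 and Scd2. Of these, Abca1 passed the filter only through quiescent libraries. The median over the sterol enzymes was −0.249 in CKO-labelled and −0.959 in control thymocytes, and −0.200 in CKO-labelled and −0.337 in control pre-B cells. The 8 proliferation markers summed to 937 FPKM in CKO-labelled and 269 FPKM in control quiescent thymocytes, and to 2500 and 2200 FPKM in cycling ones. In small pre-B cells they summed to 1110 and 522 FPKM, and in large pre-B cells to 2240 and 2010 FPKM. Their part in the lipid differences was not tested.

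**Figure D3:**
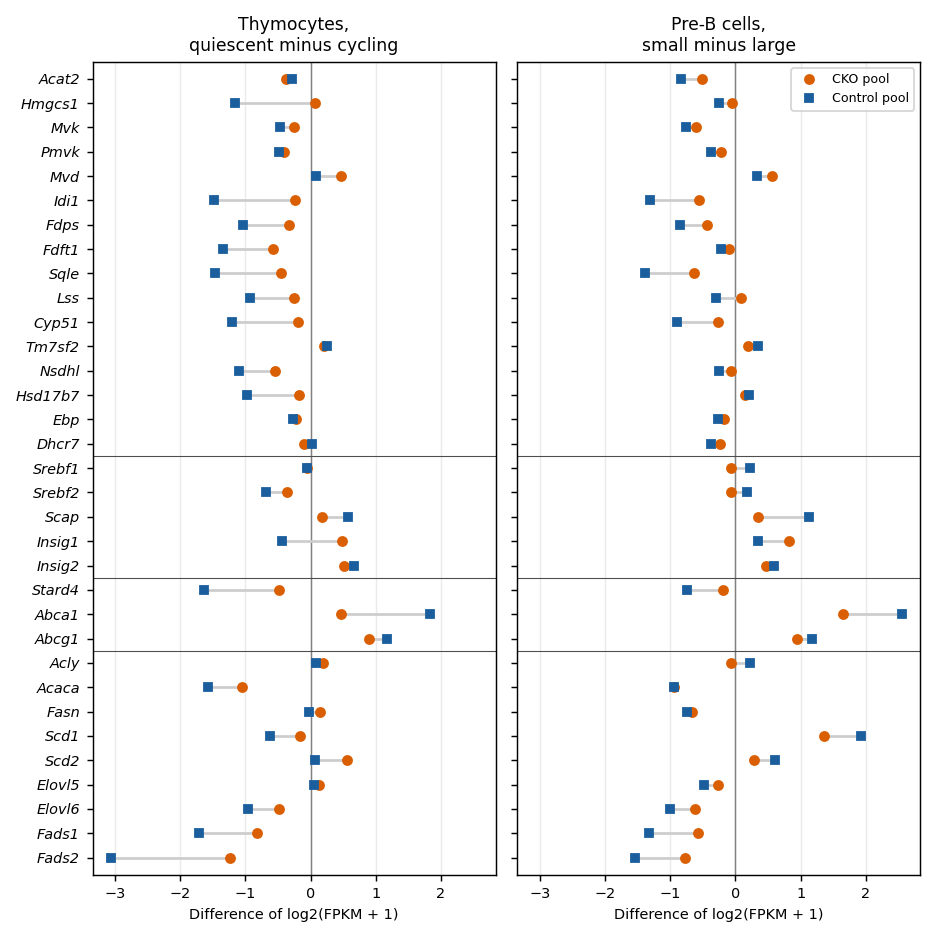
Difference of log2(FPKM + 1) between quiescent and cycling thymocytes (left) and small and large pre-B cells (right) for each of the 33 genes, with circles for the CKO-labelled pool and squares for the control pool, joined by a line. Most sterol enzymes lie left of 0 in thymocytes and farther left in the control pool, and Scd1 lies right of 0 in pre-B cells only.

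CKO-labelled and control libraries were then compared within each population, which leaves 1 library per group and no test. Ratios are of FPKM plus 1, and 2-fold differences were counted where the higher library reached 5 FPKM. Shares and medians of all genes are over the genes that reached it. In cycling thymocytes the CKO-labelled library was lower for 16 of 16 sterol enzymes, where 52.4% of all genes were higher. Their median log2 ratio was −0.373, against 0.0116 over all genes. Tm7sf2 (−0.00086) and Ebp (−0.029) were nearly unchanged. No member reached 2-fold, against 0.374% of genes higher and 0.58% lower. Fdps had 35.3 FPKM in CKO-labelled and 63.5 FPKM in control cells, and Srebf2 had 67.8 and 103 FPKM. In granulocytes 15 of 16 sterol enzymes were lower in the CKO-labelled library. Of those that reached 5 FPKM 12 of 12 were lower, where 48.0% of all such genes were higher. Hsd17b7 was the 1 member at least 2-fold lower, with 4.30 FPKM in CKO-labelled and 11.2 FPKM in control cells, against 1.76% of all genes, and no member was 2-fold higher (0.571% of all genes).

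In the quiescent and pre-B populations most members were higher in the CKO-labelled library. In quiescent thymocytes 11 of 16 sterol enzymes were higher, and 9 of the 14 that reached 5 FPKM, against 48.8% of all such genes. Insig1 (206 FPKM in CKO-labelled and 100 FPKM in control cells, log2 ratio 1.04) and Fads2 (10.9 and 3.11 FPKM, 1.54) were the members at least 2-fold higher, against 3.66% of all genes. None was 2-fold lower, against 1.6%, since Abca1 (0.490 FPKM in CKO-labelled and 3.55 FPKM in control cells) did not reach 5 FPKM. In small pre-B cells 14 of 16 sterol enzymes were higher, and 11 of the 12 that reached 5 FPKM, against 36.5% of all such genes. There 6 members were at least 2-fold higher, against 4.52% of all genes. Fads2 had 19.9 FPKM in CKO-labelled and 4.05 FPKM in control cells, a log2 ratio of 2.05. Fads1 had 15.9 FPKM in CKO-labelled and 4.56 FPKM in control cells, a ratio of 1.60. The others were Sqle (1.21), Idi1 (1.16), Cyp51 (1.10) and Elovl6 (1.08). Scd1 had 15.7 FPKM in CKO-labelled and 45.4 FPKM in control cells (log2 ratio −1.47), and Abca1 3.57 and 8.51 FPKM (−1.06), the 2 members at least 2-fold lower, against 1.78%. In large pre-B cells 13 of 16 sterol enzymes were higher, and 12 of the 13 that reached 5 FPKM, against 57.3% of all such genes. Fads2 was the 1 member at least 2-fold higher (34.6 FPKM in CKO-labelled and 13.6 FPKM in control cells, 1.28), against 0.871% of all genes. None was 2-fold lower, against 0.972%. With a pseudocount of 5 the 2-fold counts fell to 3 members in small pre-B cells (Fads1, Fads2 and Scd1), 1 in quiescent thymocytes (Insig1) and 0 in granulocytes, and with 0.1 they were 2 in granulocytes and 2 in large pre-B cells.

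Other markers differed between the same libraries. In small pre-B cells natural killer and innate markers summed to 117 FPKM in CKO-labelled and 14.2 FPKM in control cells (7 of 7 higher), and plasmacytoid dendritic cell markers to 237 and 40.8 FPKM (6 of 6 higher). Monocyte and macrophage markers summed to 92.9 FPKM in CKO-labelled and 11.6 FPKM in control small pre-B cells (3 of 10 higher), and to 32.3 and 66.5 FPKM in large pre-B cells. Csf1r was at 0.32 and 0.35 FPKM in CKO-labelled and control small pre-B cells. Proliferation markers were higher in 8 of 8 cases in CKO-labelled small pre-B cells, quiescent thymocytes and large pre-B cells alike, with median log2 ratios of 1.15 in small pre-B cells, 3.67 in quiescent thymocytes and 0.145 in large pre-B cells. Granulocyte markers were lower in 8 of 8 cases in CKO-labelled small pre-B cells (median log2 ratio −0.494) and in 8 of 8 in CKO-labelled large pre-B cells (−0.768). Erythroid markers were lower in 6 of 6 cases in CKO-labelled large pre-B cells (−0.659), and B lineage markers in 5 of 6 in CKO-labelled small pre-B cells (−0.536). In CKO-labelled granulocytes thymocyte markers were lower in 6 of 7 cases (−0.973, summed level 2.03 FPKM in CKO-labelled and 13.3 FPKM in control cells), and B lineage markers higher in 6 of 6 (0.49, 19.6 and 13.4 FPKM) as were erythroid markers (0.524, 9.58 and 3.43 FPKM). Adipocyte and stroma markers summed to at most 3.85 FPKM in any library. The part of these markers in the lipid differences was not tested. Fads2 and Fads1 lie 81.1 kb apart on chromosome 19 and point away from each other (Fads2 at 10062765 to 10101746, minus strand, and Fads1 at 10182888 to 10196877, plus strand, GRCm38).

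**Figure D4:**
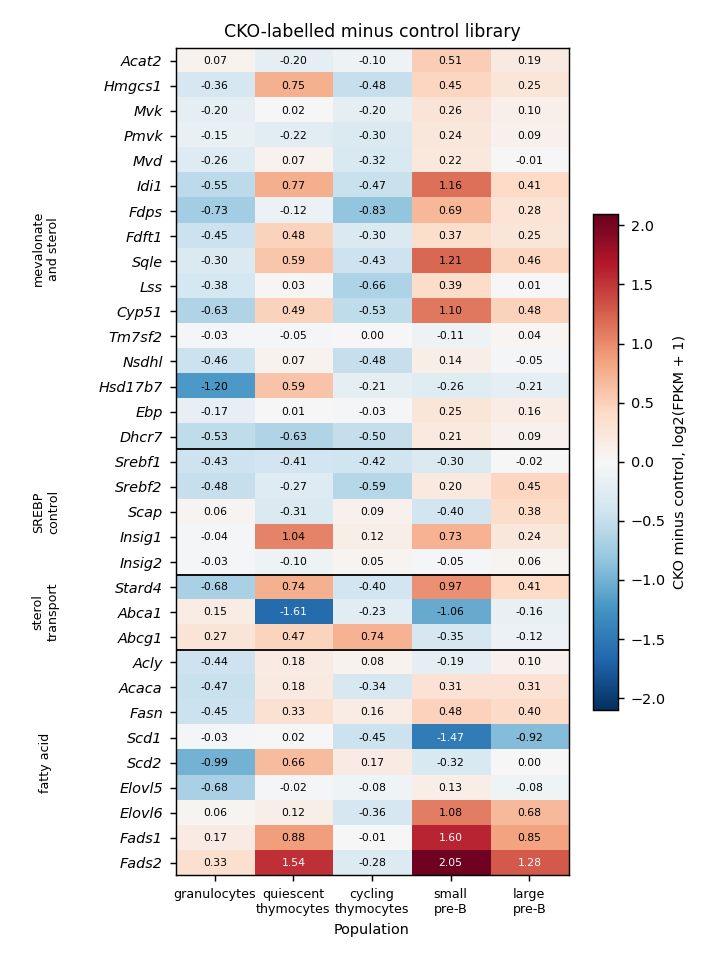
CKO-labelled minus control log2(FPKM + 1) by colour and printed value for the 33 genes (rows, grouped by role) in 5 populations (columns), each from 1 library per genotype. Sterol enzymes are mostly below 0 in cycling thymocytes and granulocytes and mostly above 0 in small and large pre-B cells, with the highest value, 2.05, for Fads2 in small pre-B cells.

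Over the 4 lymphoid pairs, with population as a block, limma called 0 members in either direction (against 0.027% of all genes higher and 0.00899% lower), and 7 members had an unadjusted p under 0.05, against 16.8% of all genes. The difference was 1.15 for Fads2, 0.83 for Fads1, 0.53 for Insig1 and 0.34 for Fasn, and −0.76 for Abca1, −0.71 for Scd1 and −0.28 for Srebf1. The limma adjusted p of these 7 lay between 0.23 and 0.26. Abca1 reached 1 FPKM only in control quiescent thymocytes (3.55 FPKM) and in CKO-labelled and control small pre-B cells (3.57 and 8.51 FPKM). It would not have passed the filter without the control libraries, where it is higher, so its p-value adds no support to these values. Insig1 and Fasn were higher in the CKO-labelled library of all 4 pairs (6.06% of members, against 14% of all genes), and Srebf1 and Abca1 lower in all 4 (6.06%, against 14%). With the granulocytes, 0 members were higher in all 5 pairs (8.69% of all genes), and Srebf1 was lower in all 5 (9.65% of all genes).

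The CKO effect was then compared between states, as quiescent minus cycling (2 residual degrees of freedom). Again limma called 0 members, against 0.00899% of all genes in each direction, and 5 members had an unadjusted p under 0.05, against 6.7% of all genes. The contrast was positive for 15 of 16 sterol enzymes, with a median of 0.37, and for 25 of 33 members, against 44.6% of all genes. A comparison between lineages, as pre-B minus thymocyte, was added after the values were seen. It called 0 members as well, and 9 had an unadjusted p under 0.05, against 14.4% of all genes. The lowest limma adjusted p was 0.15. Its contrast was positive for 14 of 16 sterol enzymes, with a median of 0.35, and for 26 of 33 members, against 46.1% of all genes.

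Other lipid genes were followed by a list of 32, of which 30 were found and 24 or 25 tested. In quiescent thymocytes 11 of 24 rose and 3 fell, against 25.2% and 19.7% of all genes. The largest changes were those of Tmem97, a sterol-responsive membrane protein gene (−1.36), Mid1ip1, which promotes acetyl-CoA carboxylase activity (−1.21), Mylip, a ubiquitin ligase for lipoprotein receptors (1.08), and Hsd17b12, an enzyme gene of fatty acid elongation (−1.04). In small pre-B cells 7 of 24 rose and 6 fell, against 25.6% and 21.8% of all genes, among them Tmem97 (−2.21), Mylip (1.99) and the citrate carrier gene Slc25a1 (−0.98). Soat1, which esterifies cholesterol, was the 1 of 24 called for a difference between lineages (−1.08), against 3.62% of all genes lower. The 3 limma fits of the CKO effect called 0 of 24, and 6 had an unadjusted p under 0.05 over the lymphoid pairs (16.8% of all genes), 0 for the difference between states (6.7%) and 7 for that between lineages (14.4%). Thymocytes had 10 of 25 higher and 6 lower than pre-B cells, against 33.2% and 36.5% of all genes, among them the lysosomal lipase gene Lipa (3.02), Soat1 (2.35) and Acss2, which activates acetate (1.58). Granulocytes had 14 of 25 higher and 6 lower, against 41% and 36.7% of all genes, led by Soat1 (4.11), the elongase gene Elovl7 (4.10), the sterol oxidase gene Sc4mol (3.23) and Mid1ip1 (2.60). Elovl7 had 15.1 and 22.5 FPKM in CKO-labelled and control granulocytes and at most 0.19 FPKM in the lymphoid libraries. It thus passed the filter only through granulocytes, where it is high, so its call, counted among the 14, adds no support to these values.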

How the data were processed

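RNA was sequenced in 10 mouse libraries, 1 for each of 5 populations and 2 genotypes, each from a pool of 2 mice. The values are those the authors deposited per gene, read as FPKM. TopHat2 2.0.8b, Cuffdiff 2.1.1 and the build mm10 are named per the submitters' processing notes, without settings, gene annotation or strand. Each table held 23179 rows. The 201 exact repeats were dropped, and a symbol still on several rows was represented by its most abundant one, leaving 22923 symbols. Depth is unknown, since FPKM do not keep it, so no counting interval is given. At low values the step of 1 fragment looked 2.37 and 2.12 times as large in CKO-labelled and control granulocytes as in control cycling thymocytes. This is an inference from ratios of low genes, shared by only 19 of 1056 and 17 of 1102 genes. Low granulocyte values may therefore be coarser.

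Tests were run on log2(FPKM + 1) in R 4.3.3 with limma 3.58.1, its trend option on. A gene entered a fit when 2 of the fitted libraries reached 1 FPKM, with Benjamini-Hochberg adjustment over all of them and a threshold of 0.05. All 33 members passed that filter in each fit. The thymocyte and pre-B populations of a genotype share 1 pool, so no p-value measures the spread between animals of 1 genotype. In the state fits the 2 pools that stand as replicates differ in genotype. An effect of genotype on the state difference is therefore counted there as residual spread. CKO-labelled and control libraries of 1 population were compared without a test. Members and lists were chosen with earlier results of these data known, and the difference of the CKO effect between lineages was added after the values were seen. All members are described, with Dyrk1a and up to 4 called genes per comparison from the list of other lipid genes. Some results of that list are not reported here. Alternatives rescaled the libraries by their median ratios, set the pseudocount to 0.1 or 5, changed or dropped the filter, fitted other sets of libraries, or left out each library or pair. Positions are from GENCODE vM21, and promoters from RefSeq on GRCm38.p6. Tables and figures were made with matplotlib 3.10.9, numpy 2.4.6 and pandas 2.3.3 under Python 3.11.15.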

Additional observations from a re-analysis of the deposited data

Results flagged for a closer look

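The effect of quiescence on 2 members differed between lineages in the limma fit, with a Benjamini-Hochberg adjusted p under 0.05 for the difference itself. These are 3.03% of members in each direction, near the 3.22% of all genes higher and 3.62% lower, so the count is no result about the gene set. For Scd1 the difference of small from large pre-B cells minus that of quiescent from cycling thymocytes was 2.04, and the gene was higher in both small pre-B libraries and lower in both quiescent thymocyte libraries than in their cycling counterparts. For Fasn it was −0.77, with lower values in both small pre-B libraries than in the large ones. Scd1 was at most 1.86 FPKM in thymocytes, so its thymocyte side rests on low values.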

How the results depend on the processing

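No paired analysis was possible because each group holds 1 library, so the groups share fewer than 2 replicate numbers. This concerns replicate numbers only, since the state fits pair libraries by pool and the CKO fits by population. With no filter on low values, 4 members were called for quiescence in thymocytes (13 otherwise), 8 in pre-B cells (14 otherwise) and 0 for the difference between lineages (2 otherwise). That last count was 1 with a pseudocount of 0.1, 1 with 5 and 1 after rescaling. Leaving out 1 pair gave 0 to 17 calls in thymocytes, 0 to 18 in pre-B cells and 0 to 1 for their difference. In thymocytes against pre-B cells, leaving out 1 pair gave −0.77 to 0.056 for Nsdhl and −1.25 to 0.062 for Acaca, with the sign turned without the quiescent thymocytes. Members at least 2-fold different between CKO-labelled and control libraries numbered 2 with a pseudocount of 0.1 and 0 with 5 in granulocytes (1 otherwise), 1 with 5 in quiescent thymocytes (2 otherwise), 3 with 5 in small pre-B cells (8 otherwise) and 2 with 0.1 in large pre-B cells (1 otherwise). The cause of these changes was not tested. Of 77 called differences of members in the limma fits, 73 kept their call with a pseudocount of 0.1, 70 with 5 and 71 after rescaling, and 52 with no filter, where more genes enter the adjustment. Depth is unknown, and members under 1 FPKM, 4 in each granulocyte library, are the least precise.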
